A study of Mus musculus with 4 samples.

Results

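The genes described here are the zinc finger genes of the mouse whose symbols run from Zfp500 to Zfp999. They were taken as every protein-coding gene of the GENCODE M1 annotation (assembly mm9) whose symbol is Zfp, a number from 500 to 999 and at most a single letter. The rule found 185 gene records under 182 symbols, of 22367 protein-coding genes in all, because Zfp664, Zfp708 and Zfp738 each have 2 records. The question was where the demethylase KDM5C sits among them. It was also asked whether members in tandem arrays differ from members with no other member near. Both were set beside promoters of similar CpG content.

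Most Zfp genes encode C2H2 zinc finger proteins, in which each finger is a short loop held around a zinc ion by a pair of cysteines and a pair of histidines, and strings of fingers read out DNA sequence. Many carry an N-terminal KRAB domain that recruits TRIM28, and through it the H3K9 methyltransferase SETDB1, to silence retrotransposons and other targets. The family grew by tandem duplication, so that many members lie side by side with related sequence. KDM5C, also called SMCX, is an X-encoded enzyme that strips methylation off histone H3 lysine 4, a mark of active promoters.

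KDM5C ChIP-Seq was carried out in mouse epiblast-like cells at day 2, labelled strain C57BL/6J and derived from male embryonic stem cells whose X chromosome carries a Tsix deletion (XΔTsixY). The 4 samples were 1 KDM5C immunoprecipitation and 1 input from cells with intact Kdm5c (WT), and the same pair from cells that also lack Kdm5c (KO), so every group shares the Tsix mutation. The labels describe conversion to epiblast-like cells alone, whereas the methods of the study add further differentiation, so the stage is uncertain. The WT peak list was called on replicate lines together and the KO list on a single sample. Each genotype therefore had 1 list, and no value below has a replicate error or a test between genotypes. The lists held 6933 WT and 47 KO peaks, of which 6916 and 44 lay on assembled chromosomes. They hold no read counts, so the depth behind each peak is unknown here, and no expression values, so loss of Kdm5c and the identity of the cells could not be checked. Intervals on shares are exact Clopper-Pearson 95% intervals that cover counting error only and take genes as independent, which neighbours that share a peak are not. For a count of 0, the share that 3 counts would give is printed as a limit, with the upper end of the exact interval beside it.

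The symbols were checked against the proteins by translating the annotated coding transcripts. At least 1 C2H2 pattern was found in 175 of the 185 members and at least 3 in 162, with a median of 10 fingers and a maximum of 33. The 10 members with 0 patterns included Zfp703, Zfp503 and Zfp750, which are atypical members of the family. A KRAB pattern was found in 101 members. The pattern is short and not a full model of the domain, so members without it may still carry a KRAB domain. In the genome, 104 members lay within 200 kb of another member of a different symbol and were called clustered, and the other 81 were called isolated. Finger genes with other symbols were not counted as partners here, so an isolated member may still lie beside a related gene. The clustered genes formed 28 arrays, 17 of them with at least 3 genes and the largest with 9. Chromosome 7 alone carried 50 members, 41 of them clustered.

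To show what these promoters look like, the 120 bases upstream of the annotated 5′ end are printed for 7 genes, 5′ to 3′ on the strand of the gene, with each CpG in capitals. Zfp707 (chr15:75799433-75799552, plus strand) had the highest KDM5C score and Zfp941 (chr7:148008078-148008197, minus) the lowest. Zfp618 (chr4:62626487-62626606, plus) and Zfp746 (chr6:48036593-48036712, minus) are rich in CpG and had no peak, and Zfp799 (chr17:32959146-32959265, minus) has no CpG in this stretch. Zfp955a (chr17:33391986-33392105, minus) and Zfp955b (chr17:33426474-33426593, plus) are a duplicated pair that differs at 0 of these 120 positions.
Zfp707: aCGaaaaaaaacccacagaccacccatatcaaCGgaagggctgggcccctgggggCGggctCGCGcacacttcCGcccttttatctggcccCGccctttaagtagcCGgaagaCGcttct
Zfp941: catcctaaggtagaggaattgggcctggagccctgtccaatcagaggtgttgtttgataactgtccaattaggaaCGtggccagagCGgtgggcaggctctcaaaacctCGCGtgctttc
Zfp618: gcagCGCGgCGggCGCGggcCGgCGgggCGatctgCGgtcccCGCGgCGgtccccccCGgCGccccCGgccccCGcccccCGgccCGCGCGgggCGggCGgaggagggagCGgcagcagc
Zfp746: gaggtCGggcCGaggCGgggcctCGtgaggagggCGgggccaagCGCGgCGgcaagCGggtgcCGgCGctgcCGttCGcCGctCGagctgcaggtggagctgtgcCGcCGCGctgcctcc
Zfp799: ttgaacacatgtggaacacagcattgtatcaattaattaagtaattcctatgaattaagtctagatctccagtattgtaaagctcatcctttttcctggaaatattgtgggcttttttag
Zfp955a: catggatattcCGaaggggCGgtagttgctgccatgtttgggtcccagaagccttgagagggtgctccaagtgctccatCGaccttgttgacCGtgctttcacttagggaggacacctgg
Zfp955b: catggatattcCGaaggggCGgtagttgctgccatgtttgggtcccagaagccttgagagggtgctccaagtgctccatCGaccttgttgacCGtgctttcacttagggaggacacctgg
The stretch held 9 CpGs in Zfp707, 4 in Zfp941, 23 in Zfp618, 18 in Zfp746, 0 in Zfp799 and 4 in both Zfp955 genes.

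A gene was called bound when the midpoint of a WT peak lay within 1 kb of any of its annotated transcription start sites (TSSs). By this rule 40 of the 185 members had a WT peak and 145 did not. The share was 21.6% (95% interval 15.9 to 28.3%), beside 24.0% of all 22367 protein-coding genes. The interval includes the share over all genes. The 40 genes drew on 43 distinct peaks, and 4 of them had 2 peaks. In KO cells 0 of 185 members had a peak at a TSS, which allows a share of up to 1.62% by 3 counts and 1.97% by the exact interval, beside 0.0939% of all protein-coding genes (21 genes). No KO peak overlapped a WT peak at a member, and the nearest KO midpoint lay 347 kb from a member TSS. The KO list was called on fewer samples, so an absent KO peak does not show an absent signal.

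The strength of a peak was read from its score, which is 10 times the −log10 of the q-value with decimals dropped, and from its fold enrichment over input. At the 40 bound members the score ranged from 23 to 631 with a median of 107.5 (quartiles 74.5 and 177.25). Over all bound protein-coding genes the median was 90. The median fold enrichment was 3.96 at members, and the median over the whole WT list was 3.72. At or above the WT median score of 82 lay 26 of the 40, and 5 of them, or 12.5%, reached the WT 90th percentile of 320. Of all bound protein-coding genes, 11.6% did so, so members held ordinary WT peaks with few at the top.

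The highest score belonged to Zfp707, a KRAB gene with 7 fingers, at 631 with 10.3-fold enrichment, which ranked 222 in the WT list. Its peak spanned chr15:75798794-75800104 and its summit lay 171 bp downstream of the TSS. Next came Zfp507 at 601, whose TSS region overlaps the gene E130304I02Rik on the opposite strand, and Zfp692 at 511. Zfp623 had a score of 398 and is the only other member within 200 kb of Zfp707, 28.2 kb away. Zfp655 had a score of 384, Zfp612 285, and Zfp800 and Zfp518b 268 each. Zfp770 followed at 243 and Zfp644, a partner of the H3K9 methyltransferases G9a and GLP, at 181. Of these 10 genes, Zfp707, Zfp692 and Zfp623 were clustered and 7 were isolated.

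**Figure D1:**
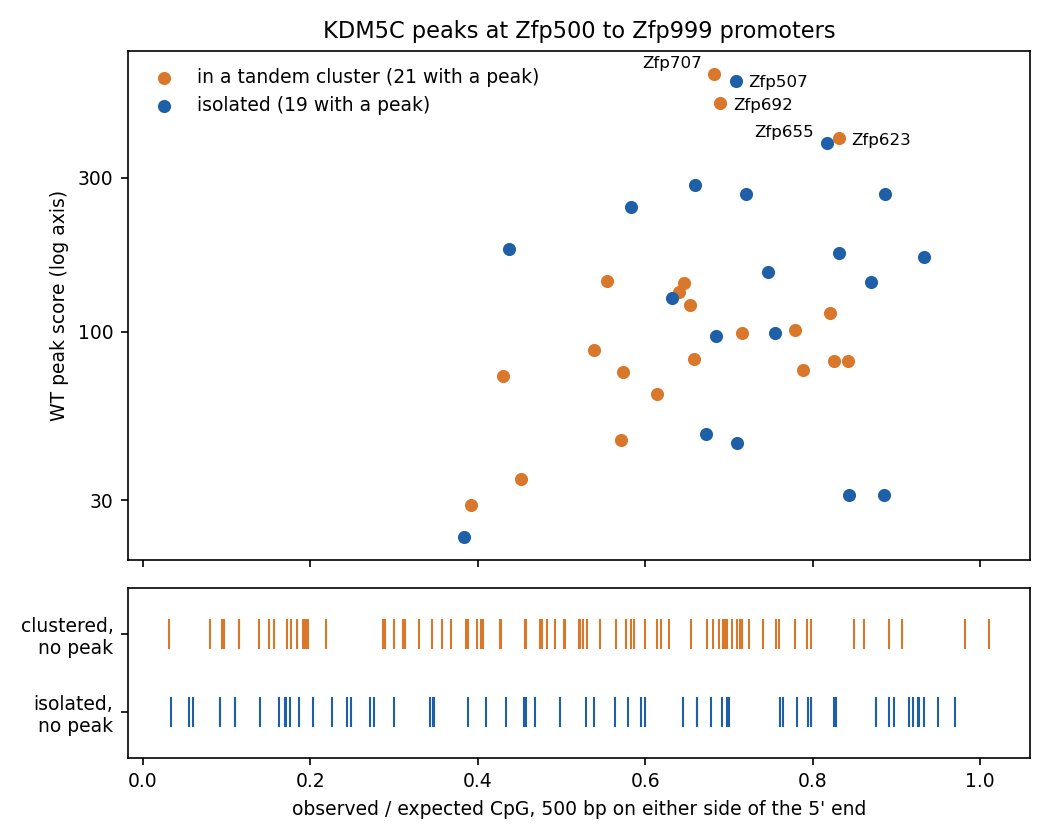
Top, WT peak score on a log axis against the ratio of observed to expected CpG within 500 bp of the 5′ end, with 1 point for each of the 40 bound members, orange for clustered and blue for isolated genes. Bottom, the same ratio for the 145 members without a peak, 1 tick each. No bound member lies under a ratio of 0.384, whereas members without a peak reach from near 0 to 1.01. In 20 of the 40 bound members the peak lay nearest to a TSS other than this 5′ end.

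The rule for a bound gene sets its peak near a start site, so closeness as such is not a result. Within that limit, 28 of 40 summits lay within 250 bp of the TSS. The summit lay downstream of the TSS in 30 of 40 bound members (75%) and upstream in 10, and over all bound protein-coding genes 60.4% were downstream. The median summit position was 116 bp downstream (quartiles 4.75 bp upstream and 199 bp downstream). Over all bound genes it was 66 bp downstream (quartiles 132 bp upstream and 200 bp downstream). Summits fell in a noncoding exon or UTR in 17 members, an intron in 13, a coding exon in 3 and outside the gene in 7. Peaks were 295 to 2454 bp wide with a median of 519 bp, beside a median of 548 bp over all bound protein-coding genes. The widest belonged to Zfp503, a regulator of the embryonic striatum. In 20 of 40 members the TSS nearest to the midpoint was not the 5′ end of the gene record. For the counts within 250 bp, by position in the gene and by TSS, no share over all bound genes was computed. The limit of 1 kb decided few calls. Just inside it lay Zfp646 at 809 bp and Zfp536, a neural repressor, at 904 bp, and just outside lay Zfp865 at 1046 bp and Zfp532 at 1067 bp.

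CpG-rich promoters belonged to 28 of the 40 bound members, beside 4353 of all 5358 bound protein-coding genes. The ratio of observed to expected CpG was taken over 500 bp on either side of the 5′ end. A promoter was called CpG-rich at a ratio of at least 0.6 with a GC content of at least 50%. In 20 of the 40 bound members the peak lay nearest to another TSS, so the class need not describe the bound sequence. Zfp644 had a ratio of 0.438 at its 5′ end and 0.883 under its peak, and Zfp536 had 0.746 and 0.505. Of 82 CpG-rich members 28 were bound, or 34.1% (24.0 to 45.4%), beside 44.1% of all CpG-rich protein-coding genes. Of the 103 others 12 were bound, or 11.7% (6.17 to 19.5%), beside 8.05% of all genes that were not CpG-rich. The interval for CpG-rich members included the share over all such genes. By the ratio alone, 0 of 29 members under 0.2 were bound, which allows a share of up to 10.3% by 3 counts and 11.9% by the exact interval, beside 1.84% of all genes in that range. Between 0.2 and 0.4 the count was 2 of 26 (7.69%), beside 5.78% of all genes. Between 0.4 and 0.6 it was 8 of 43 (18.6%), beside 18.7%, and between 0.6 and 0.8 it was 19 of 57 (33.3%), beside 38.4%. At 0.8 and over, 11 of 30 were bound (36.7%, 19.9 to 56.1%), beside 49.6% of all genes. The interval of the members included the share over all genes in each of the 5 ranges.

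If members were bound at the rate of other genes in the same of 20 bins of CpG ratio, 47.1 of 185 would have carried a peak, or 25.4%. The observed 40 is below this number, and the 95% interval of the observed share includes it. With the highest ratio over the TSSs of each gene in place of that at the 5′ end, 45.6 were expected. The bound members of lowest ratio were Zfp941 at 0.384 with a score of 23, Zfp773 at 0.392 with 29 and Zfp938 at 0.430 with 73. All 3 scores were under the WT median. The unbound members of highest ratio were Zfp746 (the parkin substrate PARIS) at 1.01, Zfp787 at 0.98, Zfp618 at 0.97, Zfp652 at 0.95 and Zfp521 at 0.93. The nearest WT midpoint to a TSS of Zfp746 lay 22254 bp away, and that of Zfp618 93785 bp away.

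Clustered and isolated genes were bound at similar rates. Among clustered members 21 of 104 had a WT peak, or 20.2% (13.0 to 29.2%), and among isolated members 19 of 81, or 23.5% (14.8 to 34.2%). The difference, clustered minus isolated, was -3.26 percentage points with a Newcombe 95% interval of -15.5 to 8.49, an interval that holds 0 as well as gaps of over 10 points in favour of isolated genes. The numbers expected from CpG ratio were 24.9 and 22.2, above the observed count in both groups. Among CpG-rich members 13 of 42 clustered and 15 of 40 isolated genes were bound (difference -6.55 points, -26.1 to 13.5). Among the others it was 8 of 62 clustered and 4 of 41 isolated genes (3.15 points, -11.1 to 15.2), the opposite sign. Bound clustered members had a median score of 88 and bound isolated members of 153, a description without a test.

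**Figure D2:**
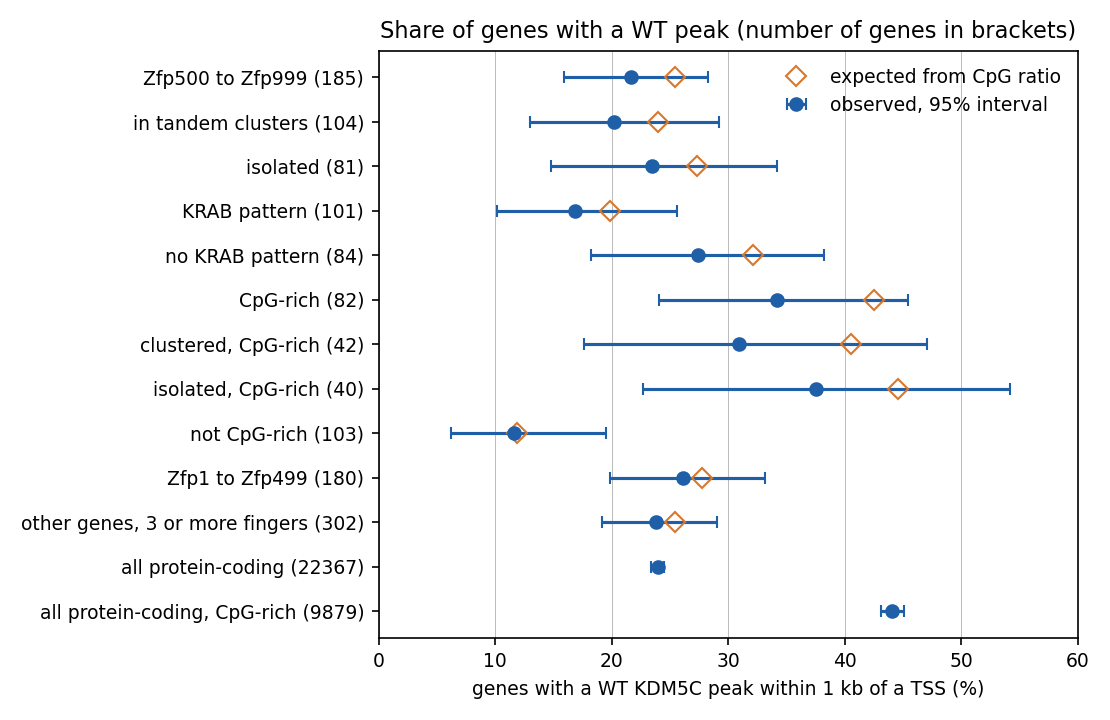
Share of genes with a WT KDM5C peak within 1 kb of a TSS for members, their subgroups and other gene groups, with exact 95% intervals (bars, counting error only) and the share expected from promoter CpG ratio (open diamonds). The diamond lies inside the interval in each group for which it is drawn, and clustered and isolated genes overlap over most of their range.

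Arrays were mostly bound in part or not at all. Over single genes, 20.2% of clustered members and 24.0% of all protein-coding genes were bound. Arrays of other genes were not scored for comparison. Of the 28 arrays 13 had at least 1 bound gene and 8 had at least 2. Only the pairs Zfp623 with Zfp707 and Zfp646 with Zfp668 had every gene bound, and the latter pair lies head to head on opposite strands, with 5′ ends 0.032 kb apart, and shares a single peak with a score of 81. The arrays with at least 3 genes fell into 10 with a peak and 7 with none. Those 7 held 38 gene records, 7 of them CpG-rich. The largest, with 9 genes over 501 kb of chromosome 17 from Zfp871 to Zfp955b, had 1 CpG-rich promoter and no peak.

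The 16 bound genes of arrays with at least 3 genes had promoter scores from 29 to 144. Their median was 85, beside 90 over all bound protein-coding genes. On chromosome 17, Zfp948 had a score of 144 and Zfp677 of 35, while 4 other genes of that array had no peak. On chromosome 6, Zfp956 reached 133 and Zfp786 75, next to Zfp777 and Zfp746 with none. On chromosome 7, Zfp771 (121) and Zfp553 (114) lay at the same end of an array of 8 genes, and the other 6 were unbound. Zfp524 (101) and Zfp580 (99) belonged to an array of 6. The arrays of 3 contributed Zfp583 at 142, Zfp954 at 88 with Zfp773 at 29, Zfp719 at 82 with Zfp658 at 46, and Zfp938 at 73. The arrays of 4 contributed Zfp568 at 76 and Zfp961 at 64. None of these 16 genes reached the WT 90th percentile.

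**Figure D3:**
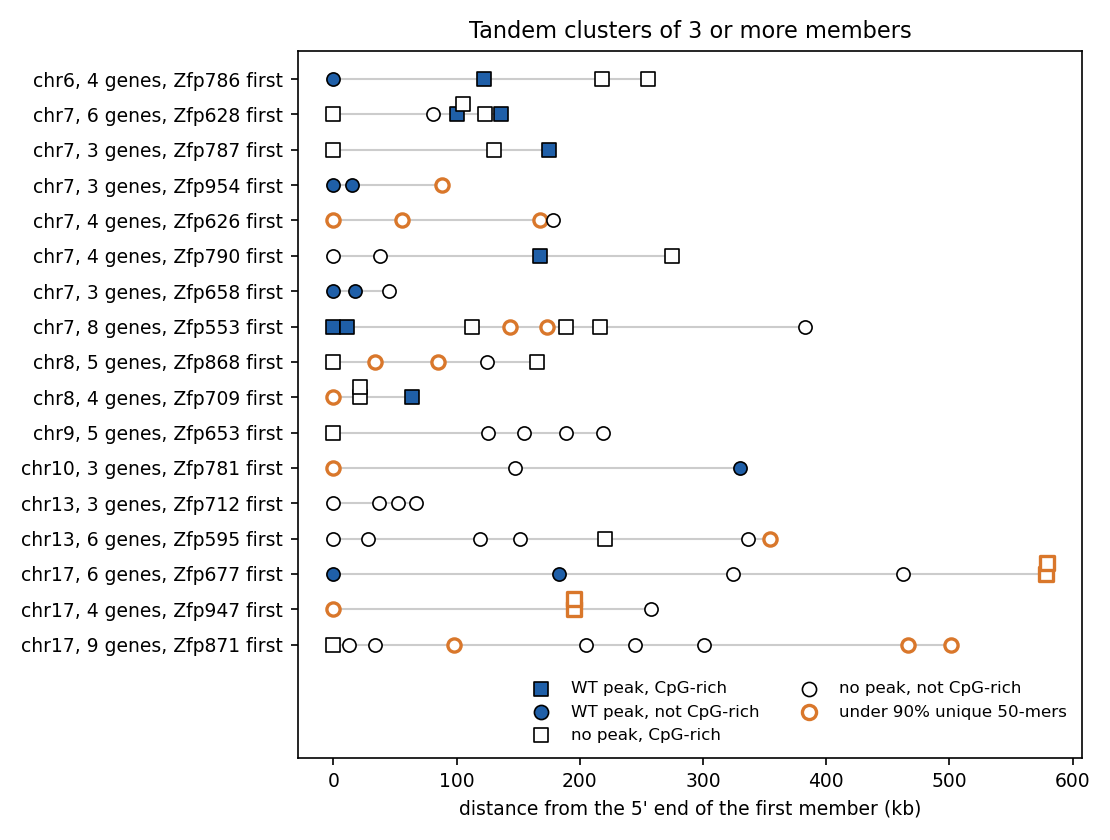
Arrays of at least 3 members, 1 row each, with every gene record placed by the distance in kb of its 5′ end from that of the first member (records closer than 9 kb to the one before are shifted up for legibility). Blue fill marks a WT peak, squares mark CpG-rich promoters, and orange outlines mark genes under 90% unique 50-mers. In all, 10 rows hold a blue symbol and 7 hold none, and no symbol is both blue and outlined in orange.

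Sequence that occurs more than once in the genome was then set beside the peaks. The authors sequenced reads of 50 bases and kept those that map uniquely, so the share of 50-base stretches (50-mers) found once in the genome was computed within 500 bp of each 5′ end. Only exact matches were counted, whereas the mapping of the authors allowed up to 2 mismatches. A 50-mer counted as unique here may therefore still lack a unique place for a read. Of the members 35 had under 90% unique 50-mers, 26 of them clustered (25.0% of clustered members) and 9 isolated (11.1%). Of these 35 genes 32 had a KRAB pattern. Zfp955a and Zfp955b had 0% unique 50-mers, Zfp781 3.89% and Zfp640 10.2%. None of the 35 was bound, which allows a share of up to 8.57% by 3 counts and 10.0% by the exact interval, and 4.22 would have been expected from their CpG ratio. Over all protein-coding genes under 90%, 4.70% were bound. The lowest value among bound members was 90.8%, at Zfp961, and 36 of the 40 stood at 100%. Among the 150 members with at least 90% unique 50-mers, 40 were bound, or 26.7% (19.8 to 34.5%), beside 27.2% of all protein-coding genes with such sequence. There, 21 of 78 clustered genes (26.9%) and 19 of 72 isolated genes (26.4%) had a peak, a difference of 0.53 points (-13.6 to 14.4). The part of unplaceable reads in the missing peaks was not tested, and the limit of 90% was chosen after the data were seen.

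**Figure D4:**
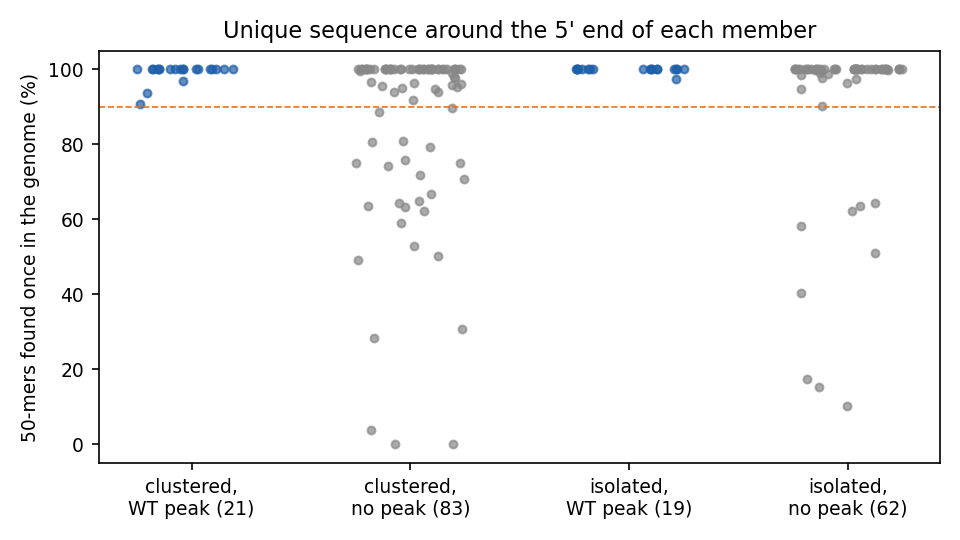
Share of 50-mers within 500 bp of the 5′ end that occur once in the genome, 1 point per member, for clustered and isolated genes with and without a WT peak (sideways spread is random, for legibility). The dashed line marks 90%. All 40 bound members lie above it, and the 35 members under it lie in the columns without a peak.

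Genes with a KRAB pattern were bound in 17 of 101 cases, or 16.8% (10.1 to 25.6%), beside 24.0% of all protein-coding genes. Those without it were bound in 23 of 84, or 27.4% (18.2 to 38.2%). The difference was -10.5 points (-22.6 to 1.38). Among members with at least 90% unique 50-mers it was -3.76 points (-17.5 to 10.5), from 17 of 69 with the pattern (24.6%) and 23 of 81 without (28.4%). The median CpG ratio was 0.50 with a KRAB pattern and 0.71 without, and the numbers expected from CpG ratio were 20.1 (19.9%) and 27.0 (32.1%), both inside the observed intervals. Within CpG-rich promoters 28.6% of genes with the pattern and 37.0% of those without it were bound (difference -8.47 points, -27.3 to 13.4). The number of fingers was alike, with medians of 9 in bound and 10 in unbound members.

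Some members have known roles and were looked up whatever their value. Zfp568, a KRAB repressor needed in gastrulation that silences a placental Igf2 transcript, was bound at 76, with 3.35-fold enrichment. Zfp687 was bound with a score of 45. No WT peak lay within 1 kb of a TSS of Zfp809, which silences murine leukaemia viruses, or of Zfp819, a testis-expressed KRAB gene, where the nearest midpoints lay 37673 and 27227 bp away. Zfp711, the only member on the X chromosome and a partner of the demethylase PHF8, had no peak midpoint nearer than 4702621 bp. Zfp521, a regulator of early neural fate, Zfp750, a regulator of epidermal differentiation, Zfp618 and Zfp827 had none either. Zfp703, a co-repressor, had none at its TSS, with the nearest midpoint 2003 bp away, inside its own last exon.

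Some members had a WT peak away from the start site, in the last exon. Last exons of zinc finger genes usually encode the whole finger array, and 10 of the 180 members with a spliced coding transcript had a WT summit in the last exon of such a transcript with the midpoint over 1 kb from every protein-coding TSS (5.56%, 2.70 to 9.98%). Over all protein-coding genes the share was 1.27%. With last exons of at least 1 kb alone, it was 8 of 156 members (5.13%) and 1.93% of all genes. Other finger genes had such peaks too. Zfp1 to Zfp499 gave 7 of 178 (3.93%) and other genes with at least 3 fingers gave 18 of 287 (6.27%). The KO list held 0 such peaks at members. These exons were picked for a closer look after the peaks had been seen.

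In 5 of the 10 the summit lay inside a finger, and for 4 of these the 121 coding bases centred on it are printed. Zfp697, with a score of 419, has its summit outside a finger and is not shown. The bases are on the strand of the gene. Capitals mark the codons of the cysteines and histidines that hold a finger together by the C2H2 pattern. They lie at chr7:134397791-134397911 (plus), chr6:47974805-47974925 (minus), chr6:48570148-48570268 (plus) and chr7:4871958-4872078 (plus), and the first capitals of Zfp771 are a codon cut by the edge.
Zfp771: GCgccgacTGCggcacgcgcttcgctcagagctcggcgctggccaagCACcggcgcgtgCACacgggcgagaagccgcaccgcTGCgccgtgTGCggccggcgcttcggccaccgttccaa
Zfp777: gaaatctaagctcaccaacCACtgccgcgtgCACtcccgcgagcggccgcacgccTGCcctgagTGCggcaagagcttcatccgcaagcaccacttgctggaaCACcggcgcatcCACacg
Zfp775: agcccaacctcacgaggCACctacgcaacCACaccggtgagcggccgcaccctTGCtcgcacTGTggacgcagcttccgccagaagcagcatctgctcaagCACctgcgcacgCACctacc
Zfp628: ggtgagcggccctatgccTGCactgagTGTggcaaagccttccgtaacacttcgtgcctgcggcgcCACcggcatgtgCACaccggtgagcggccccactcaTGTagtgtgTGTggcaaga
By this choice the summit at the middle base falls inside a finger in each. The stretches hold 22, 12, 10 and 8 CpGs in the order printed.

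The strongest of these peaks outscored every promoter peak of the members. Zfp771, a gene with 8 fingers, carried it at chr7:134397251-134398375, 9.81 kb from its 5′ end, at 1051, with 7.93-fold enrichment and rank 53 in the WT list. All 8 fingers lay under it, whereas its promoter peak scored 121. Zfp697 followed at 419 with 10 of 11 fingers under the peak, then Zfp777 at 238 with 8 of 9, Zfp775 at 177 with 5 of 11 and Zfp746 at 147 with 3 of 3, counting fingers that lie wholly under the peak. Zfp580 scored 93, Zfp786 47, Zfp707 32, Zfp703 31 and Zfp628 22. The peak covered at least 1 whole finger in 9 of the 10, all but Zfp703, which has 0 patterns, and its summit lay within a finger in 5. Of the 10 genes, 6 had no promoter peak, beside 184 of all 248 protein-coding genes with a last exon peak. Among the 6 was Zfp746, whose promoter had the highest CpG ratio of all unbound members. Of the 4 with both, 3 had the higher score at the promoter.

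**Figure D5:**
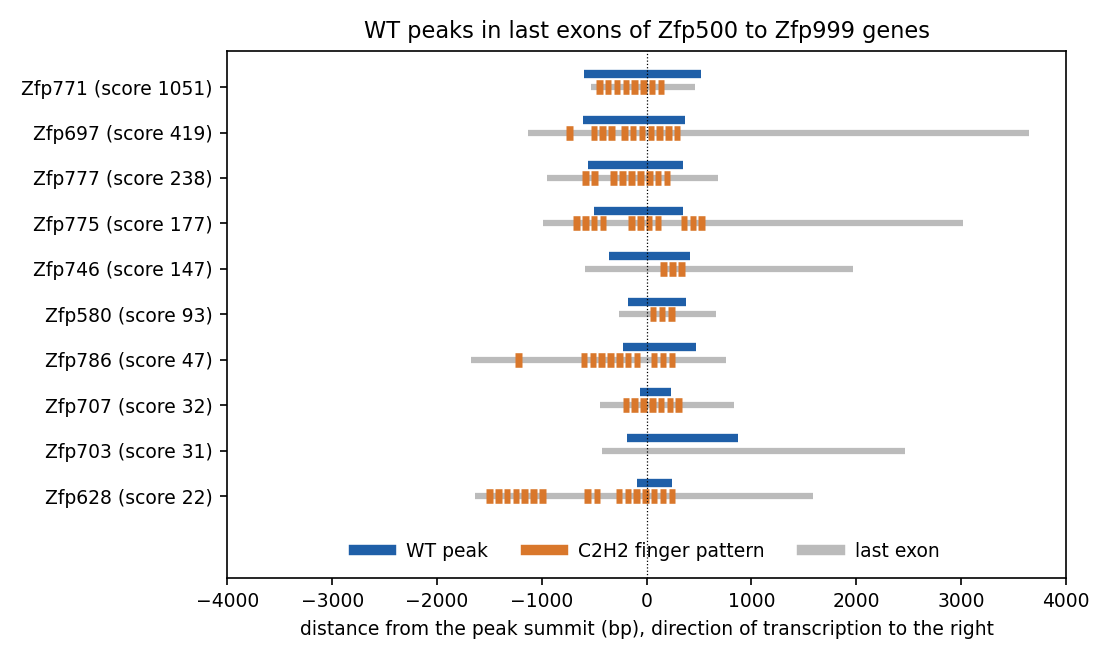
Last exons (grey), C2H2 finger patterns (orange) and WT peaks (blue) of the 10 members with a peak there, aligned on the peak summit in bp with transcription to the right, ordered by score from 1051 to 22. Blue bars cover orange blocks in 9 of 10 rows, and cover every finger in whole in Zfp771, Zfp746 and Zfp580.

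CpG content differed there too. In 8 of the 10 peaks the sequence was CpG-rich, with a ratio of 1.10 at Zfp771, 1.01 at Zfp697 and 0.395 at Zfp786. A CpG-rich window of 500 bp, over 1 kb from any protein-coding TSS, was found in the last exon of 35 of 180 members (19.4%) and of 5.18% of all protein-coding genes. Other finger genes were near the members, with 32 of 178 in Zfp1 to Zfp499 (18.0%) and 50 of 287 in other genes with at least 3 fingers (17.4%). Where such a window was present, 9 of 35 members had a last exon peak, or 25.7% (12.5 to 43.3%), beside 20.1% of all genes with one. The interval includes that share. With a window present, Zfp1 to Zfp499 gave 6 of 32 (18.8%) and other genes with at least 3 fingers 16 of 50 (32.0%). Zfp786 was the only member with a last exon peak and no such window. Among genes with a KRAB pattern 9 of 101 had a CpG-rich window, against 26 of 79 of those without the pattern, and 2 and 7 of these had a peak.

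Beyond promoters and the last exons of coding transcripts, single peaks lay inside Zfp704 (score 147), Zfp644 (27), Zfp827 (39), Zfp651 (63), Zfp865 (174), Zfp608 (75) and Zfp532 (70). Zfp652 held 3, at 436, 127 and 90, the first of which lay at the TSS of Phospho1 and the second in the last exon of a transcript annotated for nonsense-mediated decay, which was not among the coding transcripts used above. Just past the 3′ end of Zfp653 lay 1 with a score of 320. With the 10 last exon peaks counted in, 19 member genes had 21 internal or 3′ peaks. Such peaks were not counted over all protein-coding genes, so these numbers cannot be called high or low.

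The letters of 5 core motifs were searched on both strands from 250 bp upstream to 50 bp downstream of each 5′ end. The ETS core CCGGAAG, which the Zfp707 promoter printed above contains, was found in 15.7% of members (10.8 to 21.7%) and 10.8% of all protein-coding genes. It was present in 25.0% of bound and 13.1% of unbound members. Within CpG-rich promoters the shares were 32.1% (15.9 to 52.4%) of bound and 22.2% (12.04 to 35.6%) of unbound members, and the intervals overlap. Of all CpG-rich protein-coding genes 18.7% had the ETS core, and of those that were bound 18.8%. The E-box CACGTG was found in 8.65% of members and 7.78% of all genes. The E2F motif GGCGGGAA was found in 2.16% and 2.82%, the NRF1 motif GCATGCGC in 4.86% and 3.30%, and the YY1 motif AAGATGGC in 5.41% and 3.30%. CACGTG reads the same on both strands, and GGCGGGAA and CCGGAAG share the letters GGAA. A match describes sequence, not occupancy.

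Other finger genes gave shares near those of the members. Zfp1 to Zfp499 had 47 of 180 bound (26.1%, with 50.0 genes expected from CpG ratio), and the difference from the members was -4.49 points (-13.2 to 4.25). Other genes with at least 3 fingers had 72 of 302 (23.8%, with 76.7 expected), a difference of -2.22 points (-9.60 to 5.64).

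The partners through which KRAB proteins act were looked up in the same way. Of a list of 20 symbols, written with results of these data in view, 19 were found under 20 gene records, and 11 records had a WT peak (55.0%, 8.46 expected from CpG ratio), beside 24.0% of all protein-coding genes. Trim28, the co-repressor that KRAB domains recruit, had a score of 289. The deacetylase gene Hdac2 had 2062 and was the only record with a KO peak as well. Morc2a, which works with the HUSH silencing complex, had 699, the remodeller Smarcad1 634 and Morc3 350. Lower scores were found at Atf7ip, the partner of SETDB1 (81), Pphln1 (50), Cbx5 and Uhrf1 (48 each), Dnmt1 (39) and Atf7ip2 (32). Setdb1, Cbx1, Cbx3, Chd4, Hdac1, Mphosph8, Dnmt3a and Dnmt3b had no WT peak at a TSS, nor did the second Atf7ip record.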

How the data were processed

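Peak lists were the only files used, 1 for WT and 1 for KO, and no column belonged to another sample. The authors mapped single-end reads to mm9 with Bowtie (version 1.1.2 per the labels), discarded reads without a unique position and called peaks over input with MACS2 2.1.0.20140616, with a q-value under 0.1. Each deposited row gives a score, a fold enrichment (a ratio over input), and −log10 p and q values, of which the p was not used. In all 6980 rows the score equalled 10 times −log10 q with decimals dropped. Neither counts nor depth can be had from the lists.

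Peaks on chromosomes 1 to 19, X and Y were assigned to GENCODE M1 start sites on NCBIM37, the assembly of mm9. Assignment was tested on simulated data and recovered 200 of 200 genes among 22367. Expected counts are the shares of protein-coding genes other than members in 20 CpG bins. Fingers and KRAB boxes were found by pattern in translated coding transcripts. Python 3.11.15, NumPy 2.4.6, SciPy 1.17.1, pysam 0.24.0, numba 0.67.0 and matplotlib 3.10.9 were used. Samples were grouped by title. No test was run, since each genotype has a single list. Shares carry Clopper-Pearson intervals and differences Newcombe intervals.

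Members and gene lists were chosen with earlier results of these data known. Named genes were the 10 members of highest score, bound members of arrays of at least 3, the 3 bound of lowest and 5 unbound of highest CpG ratio, those nearest the 1 kb limit, any with a KO peak, and 10 with known roles. Members described in the passages on last exons, internal peaks and unique sequence were chosen after their values were seen.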

Additional observations from a re-analysis of the deposited data

How the results depend on the processing

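For 10 results, 87 alternative values were computed. Of these, 70 stayed within the main interval or within 1.5 times the main count, 17 moved and 0 reversed a called sign. The interval of the only difference among the results includes 0, so no sign was called and none could be reversed. The intervals of the member shares are wide, so staying inside them is a weak check. Stricter peak thresholds moved most. With peaks at the WT median score or higher, the number of bound members was 26, with 25.0 expected from CpG ratio, and the shares were 11.5% of clustered members, 7.92% of members with a KRAB pattern and 13.0% of all protein-coding genes. At the 90th percentile the number was 5, with 5.03 expected, and the shares were 2.88% of clustered, 2.47% of isolated, 1.98% of KRAB and 3.57% of other members, and 2.79% of all genes. The share of all genes also moved to 21.8% with a window of 500 bp, 27.0% with 5 kb, 22.0% with the 5′ end alone, 21.7% with each peak given to its nearest TSS, and 27.2% with at least 90% unique 50-mers, where the KRAB share was 24.6% and that of the other members 28.4%. The difference between clustered and isolated members ranged from -7.12 to 0.53 points over 11 alternatives, below 0 in 9 and above 0 in 2, all inside the main interval. Clustered members numbered 78 at 100 kb, 115 at 500 kb and 116 with any Zfp partner. The alternatives on unique 50-mers and on 1 record per symbol were chosen after seeing the data. Median scores under a score filter were not computed. No paired analysis was possible because WT replicates were merged before peaks were called and KO had a single sample. Without read counts, a promoter without a peak cannot be told from one just under the caller's threshold.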
